A study of Mus musculus with 24 samples.

Results

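The comparison described here is the difference between the responses of wild type and *Bcl3-/-* muscle to unloading, that is, the change from weight bearing (WB) to hind limb unloaded (HU) muscle in wild type mice minus the same change in *Bcl3-/-* mice. It uses 16 of the 24 arrays of the series, 4 arrays in each of 4 groups, and every probe set that was tested belongs to it. The muscles were the gastrocnemius and plantaris of male mice aged 6 weeks, taken from WB mice or from mice unloaded by tail suspension for 6 days, and per the methods each array held the RNA of 1 mouse. Wild type mice were of the F2 hybrid stock B6129PF2/J and *Bcl3-/-* mice were of the strain FVB;129P2-Bcl3tm1Ver/J, in which the gene is deleted in every tissue. The other 8 arrays, from WB and HU *Nfkb1-/-* mice (B6;129P2-Nfkb1tm1Bal/J), entered the same fit, and their response is given beside the others for the genes described by array.

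Bcl-3 is a nuclear member of the IκB family. It does not bind DNA on its own but joins dimers of the p50 or p52 subunits of NF-κB at κB sites, and with them it can activate or repress transcription. Removing the load from a hind limb makes its muscles lose mass, with increased breakdown of protein through the ubiquitin-proteasome pathway, and over a longer time shifts slow, oxidative fibres towards fast, glycolytic ones. A gene that needs Bcl-3 for its response should change with unloading in wild type muscle and change less in *Bcl3-/-* muscle, which is the question that this difference addresses.

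The 2 genotypes were deposited on different scales. The median intensity was 11.6 to 11.9 on wild type arrays and 81.1 to 86.8 on *Bcl3-/-* arrays, so levels were not compared between genotypes, and genotype, strain and array scale cannot be told apart in any difference below. Of the 19294 probe sets tested, 9323 were above an intensity of 20 on at least 4 of the 8 arrays of each genotype, and 9967 lay at or near the floor of the wild type arrays. The cutoff of 20 was the same on both scales, so it limited the wild type arrays and removed little on *Bcl3-/-* arrays. *Rel*, at the wild type floor with means of 3.96 in WB and 3.76 in HU mice, read 33.1 and 31.9 in *Bcl3-/-* muscle. Above the floor here means above 20, and low readings on *Bcl3-/-* arrays were not screened out. The single *Bcl3* probe set lay at the floor in wild type muscle (4.54 to 6.17 in WB and 4.63 to 6.41 in HU mice) and read 42.5 to 56.6 and 43.1 to 50.3 in WB and HU *Bcl3-/-* muscle, so it could not check the deletion. The genes of skeletal muscle were detected in both genotypes: all 14 muscle markers listed were above the floor. Among neutrophil markers, 1 of 14 was above the floor in both genotypes. Of wild type arrays, HU replicate 1 lay farthest from its group (0.302, root mean square distance in log2 units), and of *Bcl3-/-* arrays, WB replicate 2 did (0.332).

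Unloading responses differed between the genotypes for 206 probe sets at a Benjamini-Hochberg adjusted p under 0.05 from limma. The response was higher in wild type muscle for 51 of them, which is 0.264% of all probe sets tested, and lower in wild type muscle for 155, which is 0.803%. Among probe sets above the floor of both genotypes, 37 were higher (0.397%) and 115 were lower (1.23%). Counting 1 probe set per gene over 11098 genes, 34 genes were higher (0.306%) and 96 were lower (0.865%). These counts depended on single arrays. They were 80 higher and 110 lower without *Bcl3-/-* WB replicate 4, 76 and 315 without *Bcl3-/-* WB replicate 3, and 25 and 67 without *Bcl3-/-* HU replicate 1. The lower count was 84 without *Bcl3-/-* HU replicate 3, 96 (with 30 higher) without *Bcl3-/-* WB replicate 2 and 84 without wild type HU replicate 1. Without wild type WB replicates 1, 2 and 3 in turn it was 74, 85 and 87, with 33, 36 and 33 higher. When wild type HU replicate 1 and *Bcl3-/-* WB replicate 2 were both left out, a setting chosen after seeing the data, 21 were higher and 40 lower.

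The larger lower class was mostly made by increases in *Bcl3-/-* muscle. Of its 115 probe sets above the floor, 82 were called higher with unloading in *Bcl3-/-* mice, 31 were called lower in wild type mice, 5 of these being called both ways, and 7 were called in neither genotype alone. The 37 probe sets of the higher class were divided evenly, with 19 called higher in wild type muscle and 19 called lower in *Bcl3-/-* muscle, 1 of them both. Responses had opposite signs in 26 of the 37 and in 97 of the 115. These probe sets were chosen by the difference between responses, which favours opposite signs. The responses of all 9323 probe sets above the floor correlated positively (r = 0.37). Over the 9323 probe sets above the floor, 613 wild type and 1535 *Bcl3-/-* responses were called, and 144 probe sets were called higher in both.

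**Figure D1:**
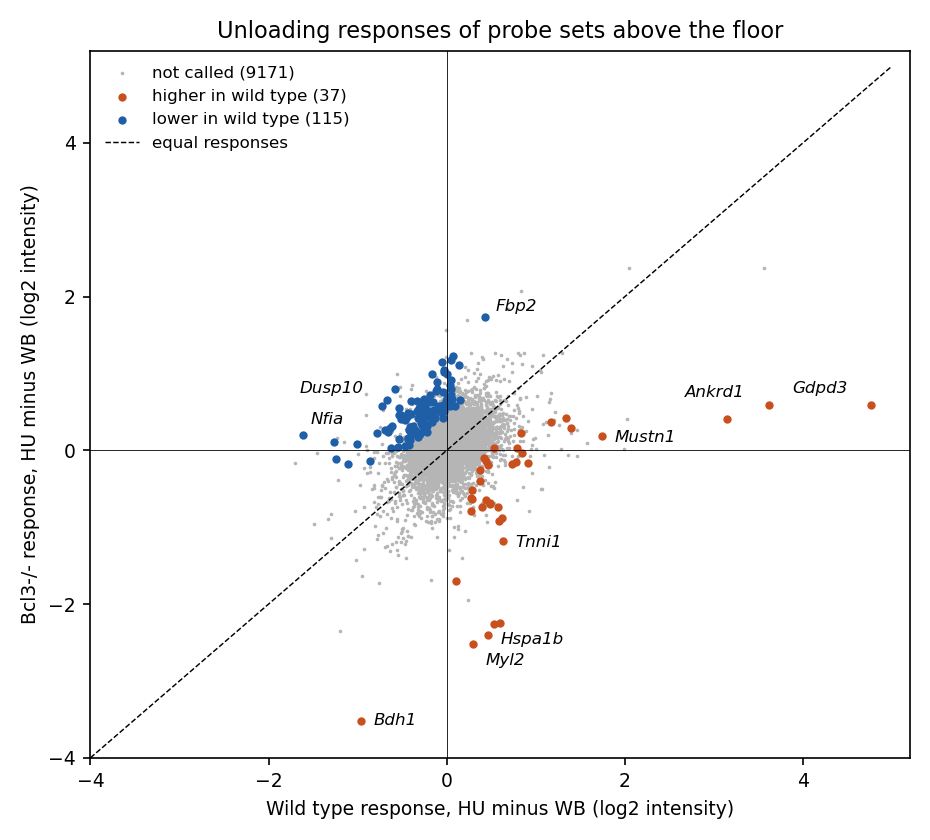
Response of each probe set above the floor of both genotypes in wild type muscle (x axis) and *Bcl3-/-* muscle (y axis), as HU minus WB in log2 intensity, with the 37 probe sets called higher in wild type in orange and the 115 called lower in blue. Most called points lie in the quadrants of opposite sign, which their selection by the difference favours. *Gdpd3* and *Ankrd1* stand far to the right, and *Bdh1*, *Myl2* and *Hspa1b* far below the dashed line of equal responses.

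The genes of slow muscle fibres had the largest median difference of the gene lists examined. Slow (type I) fibres use their own isoforms of myosin, troponin, tropomyosin and the calcium pump. Of the 14 genes listed, 13 had a higher response in wild type mice than in *Bcl3-/-* mice, against 45.5% of all genes. Of these 7 were called (*Myl2*, *Tnni1*, *Tnnc1*, *Myh7*, *Tpm3*, *Atp2a2* and *Casq2*), against 0.306% of all genes. The median difference of the list was 1.07 on the log2 scale, against −0.02 over all genes tested. In *Bcl3-/-* muscle 8 of the 14 fell with unloading and 1 rose, while in wild type muscle none fell and 1 rose. The gene that rose in both was *Sln*, the inhibitor sarcolipin of the calcium pump (3.57 in wild type and 2.37 in *Bcl3-/-* mice). For comparison, 2.99% of all genes fell with unloading in *Bcl3-/-* muscle and 1.75% in wild type muscle.

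*Myl2*, the slow regulatory myosin light chain, had the lowest adjusted p of this group. In *Bcl3-/-* mice the WB arrays read 5052, 5015, 4897 and 4878 and the HU arrays 784, 718, 1177 and 845. In wild type mice the WB arrays read 1035, 990, 1343 and 1141 and the HU arrays 1190, 1517, 1250 and 1590. All 4 unloaded *Bcl3-/-* arrays were thus below every WB array of that genotype, whereas the wild type groups overlapped. The response was −2.52 (SE 0.26) in *Bcl3-/-* and 0.30 (SE 0.26) in wild type muscle, and the difference of 2.82 (SE 0.37) had an adjusted p of 0.000602 from limma.

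*Tnni1*, the slow isoform of the inhibitory troponin, read 1901, 1994, 1617 and 1627 in WB and 647, 899, 1194 and 546 in HU *Bcl3-/-* mice. In wild type mice it read 227, 216, 297 and 224 in WB and 387, 433, 298 and 374 in HU muscle. The groups did not overlap in either genotype, and they moved in opposite directions, although the wild type response of 0.63 did not pass the test (adjusted p = 0.18). The difference was 1.81 (SE 0.36, adjusted p = 0.016 from limma).

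*Tnnc1*, the slow and cardiac calcium-binding troponin, went from 3562 ± 440 (SD, n = 4) to 1881 ± 238 in *Bcl3-/-* muscle and from 679 ± 123 to 1024 ± 176 in wild type muscle. *Myh7*, the slow myosin heavy chain, went from 4583 ± 462 to 2757 ± 217 and from 617 ± 121 to 916 ± 132 in the same order. In both genes the *Bcl3-/-* arrays separated by condition and the wild type arrays overlapped. The differences were 1.51 (SE 0.27, adjusted p = 0.0077 from limma) for *Tnnc1* and 1.31 (SE 0.27, adjusted p = 0.017) for *Myh7*.

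*Atp2a2*, the slow and cardiac calcium pump SERCA2, was the only gene with a probe set called higher in wild type and lower in *Bcl3-/-* mice. The wild type WB arrays read 297, 317, 366 and 439 and the HU arrays 440, 529, 498 and 509. The *Bcl3-/-* WB arrays read 2186, 2475, 2153 and 1861 and the HU arrays 1359, 1682, 1255 and 1154. No unloaded array overlapped a WB array of its genotype. The difference was 1.17 (SE 0.19, adjusted p = 0.0052 from limma), and all 4 probe sets of this gene had called differences, of 0.79 to 1.17. The wild type rise depended on the probe set. It was 0.49 at the one shown (adjusted p = 0.043 from limma). At the one that represents the gene in the list it was 0.44 and was not called (adjusted p = 0.056).

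*Tpm3*, the slow tropomyosin, had 5 probe sets, 2 of them called, and the difference at the most responsive one was 1.13 (SE 0.20, adjusted p = 0.0071 from limma). *Casq2*, the slow and cardiac calsequestrin, differed by 1.05 (SE 0.25, adjusted p = 0.0396), but its call was lost in 12 of the 16 fits that left out 1 array, with adjusted p up to 0.0971 without *Bcl3-/-* HU replicate 1. The other 6 called slow genes kept their call in all 16 of these fits. *Myl3*, the slow essential light chain, fell in *Bcl3-/-* muscle (−0.90), but its difference of 0.81 did not pass (adjusted p = 0.2). The *Nfkb1-/-* responses of *Myl2*, *Tnni1*, *Tnnc1* and *Myh7* were 0.19, 0.49, 0.63 and 0.58, those of *Tpm3* and *Atp2a2* were 0.45 and 0.57, and that of *Casq2* was −0.39.

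No fast isoform was called. None of the 14 fast fibre genes had a called difference by limma, 1 had an unadjusted p under 0.05, and the median difference was 0.03. That gene was *Myh2*, the myosin of fast oxidative fibres, with a response of −1.13 in *Bcl3-/-* and −0.40 in wild type muscle and a difference of 0.73 (SE 0.32, adjusted p = 0.31).

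**Figure D2:**
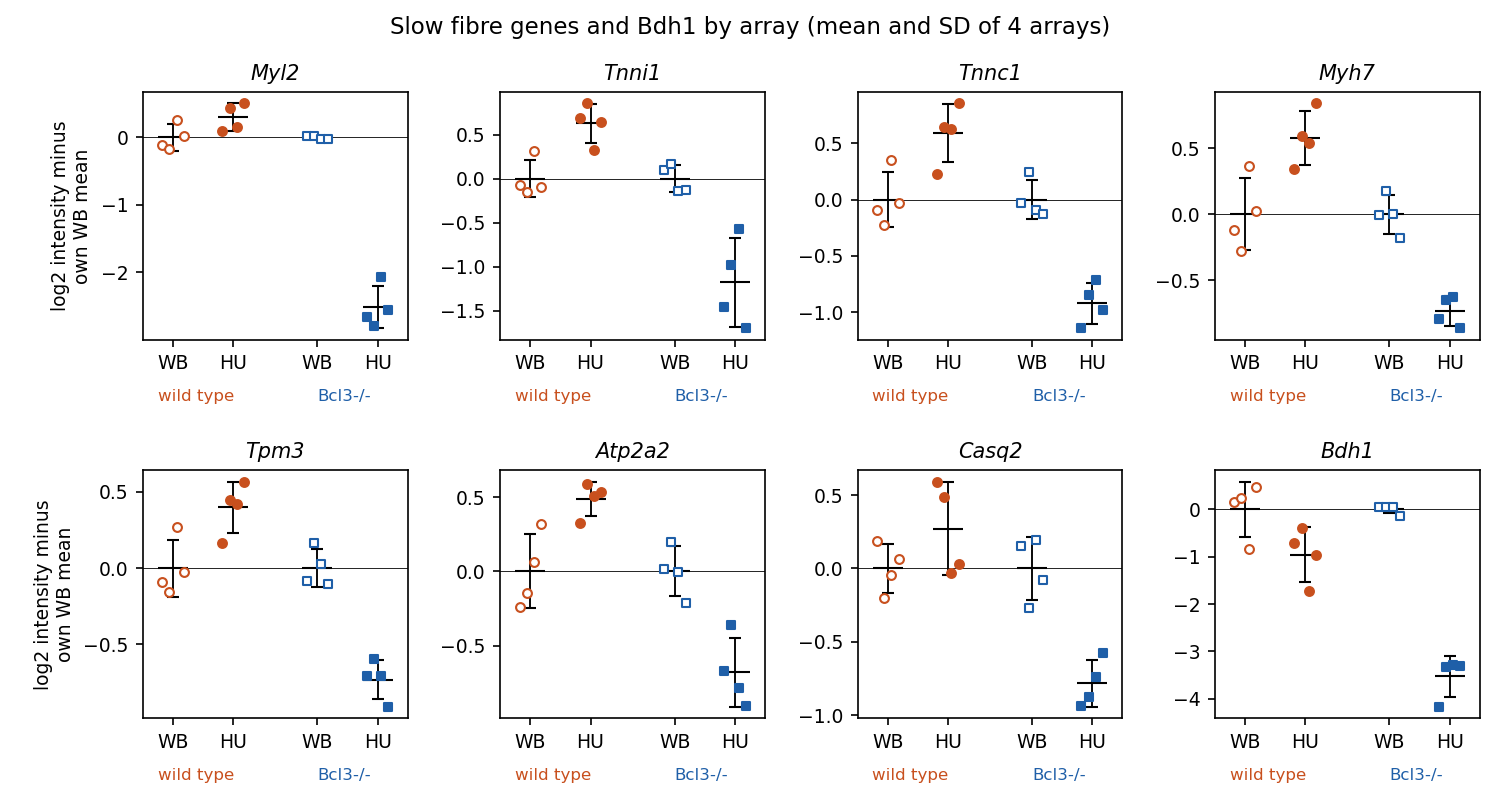
Intensities of 7 slow fibre genes and *Bdh1* on each array, in log2 units relative to the WB mean of the same genotype. This removes a constant factor between the array scales, but not their other differences. Over the probe sets tested, *Bcl3-/-* WB means rose with wild type WB means at a slope of 0.887 in log2 units. Open symbols are WB, filled symbols HU, and bars are the mean and SD of 4 arrays (y axes differ between panels). In every panel the 4 unloaded *Bcl3-/-* arrays lie below the WB arrays of that genotype, and in no slow fibre panel do the unloaded wild type arrays lie below theirs.

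*Bdh1*, the mitochondrial enzyme that oxidises the ketone body hydroxybutyrate, had the largest fall in *Bcl3-/-* muscle among the 206 called probe sets. Its *Bcl3-/-* WB arrays read 374, 372, 372 and 329 and its HU arrays 20.1, 36.1, 36.8 and 36.5. Its wild type WB arrays read 56.5, 60.6, 28.4 and 70.4 and its HU arrays 31.1, 38.8, 15.4 and 26.0. The *Bcl3-/-* groups stood far apart and the wild type groups overlapped. The HU readings in *Bcl3-/-* muscle were near those of *Rel* there (HU mean 31.9), a gene at the wild type floor. The size of the *Bdh1* fall is thus uncertain. The response was −3.52 (SE 0.37) in *Bcl3-/-* and −0.96 (SE 0.37) in wild type muscle, a difference of 2.57 (SE 0.52, adjusted p = 0.016 from limma). A probe set at the wild type floor gave 1.66. The *Nfkb1-/-* response was −1.18. The next enzyme of the pathway, *Oxct1*, fell in both genotypes (−0.78 and −1.10), and its difference of 0.33 did not pass (adjusted p = 0.52).

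*Hspa1b*, an inducible heat shock protein of the Hsp70 family, read 1115, 4654, 2006 and 1263 in WB and 209, 721, 610 and 182 in HU *Bcl3-/-* muscle. In wild type muscle it read 64.6, 45.8, 24.3 and 36.1 in WB and 61.8, 53.5, 39.2 and 72.0 in HU mice, near the floor. The *Bcl3-/-* groups separated and the wild type groups overlapped. The difference was 2.87 (SE 0.57, adjusted p = 0.016 from limma), its 3 probe sets gave 2.79 to 2.87, and WB replicate 2, the *Bcl3-/-* array farthest from its group, held the highest value. Without that array the difference was 2.44. The *Nfkb1-/-* response was −0.71. The near-identical copy *Hspa1a* fell by 1.95 in *Bcl3-/-* muscle, with a difference of 2.19 (adjusted p = 0.069), and transcripts of the 2 copies may bind the same probes. *Hspa1b* was the only one of 20 heat shock genes with a called difference; *Hsp90aa1* fell by 0.80 in *Bcl3-/-* muscle, with a difference of 0.71 (adjusted p = 0.065), and *Dnaja1* fell in both genotypes (−0.50 and −1.02).

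The increases that were larger in wild type muscle included genes of stretch sensing and of the neuromuscular junction. *Ankrd1* encodes a titin-binding protein that is induced by mechanical strain and denervation. Its wild type WB arrays read 7.49, 9.08, 7.14 and 11.4, at the floor, and its HU arrays 295, 59.8, 74.9 and 94.6. Its *Bcl3-/-* WB arrays read 58.1, 190, 72.3 and 44.7 and its HU arrays 79.4, 69.4, 187 and 176. The lowest of these were near the readings of the *Bcl3* probe set there (WB mean 48.1), which was at the wild type floor. The size of the *Ankrd1* response is thus uncertain in both genotypes. The wild type groups were separate and the *Bcl3-/-* groups overlapped. The difference was 3.03 (SE 0.69, adjusted p = 0.031 from limma), and it lost its call in 7 of the 16 fits that left out 1 array, with adjusted p up to 0.0784 without *Bcl3-/-* HU replicate 1. It was called in 8 of the 14 other settings, and its second probe set in 4. The *Nfkb1-/-* response was 2.04.

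*Mustn1*, a small nuclear protein of muscle and tendon that is induced in growing and regenerating muscle, read 159, 113, 142 and 119 in WB and 619, 413, 410 and 370 in HU wild type muscle. In *Bcl3-/-* muscle it read 1113, 1378, 1418 and 1064 in WB and 1335, 1072, 2024 and 1355 in HU mice. It rose in all 4 unloaded wild type arrays, while the *Bcl3-/-* groups overlapped. The difference was 1.56 (SE 0.25, adjusted p = 0.004 from limma) and kept its call in all 14 other settings and all 16 fits without 1 array. Its *Nfkb1-/-* response was 1.15.

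Of the 19 genes listed for the Z-disc and stretch response, *Ankrd1* and *Mustn1* were called, against 0.306% of all genes. A positive difference was found in 15 of the 19, against 45.5% of all genes, and the median was 0.49. *Ccn1* and *Itga7* rose in wild type muscle (1.10 and 0.63) with responses of −0.06 and 0.02 in *Bcl3-/-* muscle, and *Ccn2*, the connective tissue growth factor, fell in *Bcl3-/-* muscle (−1.02). The differences of these 3 genes did not pass the test (adjusted p = 0.12, 0.15 and 0.16). *Cryab*, the small heat shock protein that guards desmin, had a difference of 0.68 (adjusted p = 0.094).

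*Chrnb1*, the beta subunit of the muscle acetylcholine receptor, read 42.3, 48.3, 46.3 and 49.2 in WB and 152, 87.2, 98.5 and 92.6 in HU wild type muscle. In *Bcl3-/-* muscle it read 392, 386, 439 and 327 in WB and 448, 534, 545 and 470 in HU mice. Unloaded arrays were above WB arrays in both genotypes, and the response was larger in wild type muscle (1.18, against 0.37, which was not called), a difference of 0.80 (SE 0.18, adjusted p = 0.029 from limma). The call was lost without wild type WB replicate 1 or 3 and without *Bcl3-/-* HU replicate 1 or 4. The *Nfkb1-/-* responses were 0.90 for *Chrnb1* and 0.45 for *Chrne*. *Chrne*, the subunit of the adult receptor, was at the wild type floor, went from 17.3 ± 1.98 to 27.9 ± 7.39 (SD, n = 4) there and from 234 ± 44.1 to 182 ± 24.4 in *Bcl3-/-* muscle, and differed by 1.00 (SE 0.23, adjusted p = 0.03), a call lost in 7 of the 16 fits. These were the called members among 16 receptor and denervation genes, against 0.306% of all genes. The list had a median difference of 0.37, but only 5 of the 16 were above the floor in both genotypes. *Chrna1* rose in wild type muscle (1.26, against 0.32 in *Bcl3-/-* muscle), and its difference of 0.94 did not pass (adjusted p = 0.28).

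Promoters were read from RefSeq (build GRCm38.p6), as the 250 bases before each annotated start, and are written 5′ to 3′ on the strand of the gene with the bases of a match in capitals. For the muscle genes 4 motifs were searched on both strands: the MEF2 site, bound by a family of muscle transcription factors (in 0.592% of all genes), the M-CAT site CATTCC, bound by TEAD factors and known from muscle promoters (in 14.4% of all genes), the heat shock element GAANNTTC (7.73%) and the N-box CCGGAA of synaptic genes (13.6%). M-CAT matches were found in 2 of the 6 called slow fibre genes with a promoter, *Tnnc1* and *Myh7*, and in 10 of the 36 higher genes. MEF2 matches were found in 0 of these 6 and 0 of these 36 genes. *Tnnc1* is shown as the slow gene with its match near the start (−58 to −53), *Ankrd1* for a pair of M-CAT matches (−210 to −205 and −123 to −118, the latter sharing 1 base with a heat shock element at −118 to −111), *Hspa1b* for its heat shock element (−104 to −97) and *Chrne* for its N-box (−76 to −71).
Tnnc1, chr14:31208062-31208311, plus strand: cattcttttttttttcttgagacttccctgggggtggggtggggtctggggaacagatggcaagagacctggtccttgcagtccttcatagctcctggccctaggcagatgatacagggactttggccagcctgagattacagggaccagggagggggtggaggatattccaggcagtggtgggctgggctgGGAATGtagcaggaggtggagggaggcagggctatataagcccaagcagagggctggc
Ankrd1, chr19:36119845-36120094, minus strand: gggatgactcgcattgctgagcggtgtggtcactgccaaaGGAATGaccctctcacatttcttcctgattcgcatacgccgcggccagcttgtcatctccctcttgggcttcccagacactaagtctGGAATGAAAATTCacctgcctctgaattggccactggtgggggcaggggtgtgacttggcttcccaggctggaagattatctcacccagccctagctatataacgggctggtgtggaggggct
Hspa1b, chr17:34959239-34959488, minus strand: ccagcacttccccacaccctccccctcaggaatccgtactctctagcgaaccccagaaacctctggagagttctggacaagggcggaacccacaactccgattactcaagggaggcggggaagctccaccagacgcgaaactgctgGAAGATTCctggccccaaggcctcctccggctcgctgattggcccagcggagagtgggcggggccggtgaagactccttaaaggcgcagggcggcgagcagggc
Chrne, chr11:70619195-70619444, minus strand: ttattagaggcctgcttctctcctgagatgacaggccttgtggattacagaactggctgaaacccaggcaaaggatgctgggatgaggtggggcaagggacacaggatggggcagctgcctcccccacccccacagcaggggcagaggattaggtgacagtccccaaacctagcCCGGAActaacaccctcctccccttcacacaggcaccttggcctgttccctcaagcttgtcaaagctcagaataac
A match is a stretch of letters and not a measured binding site. No κB match lay in the 250 bases searched for these 4 genes or for the other called slow fibre genes with an entry. The κB site that the study examined upstream of *Ankrd1* lies farther from the start than the bases searched.

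*Gstm2*, a glutathione transferase, was the only probe set of the higher class called higher in both genotypes. It went from 66.9 ± 6.56 to 170 ± 27.4 (SD, n = 4) in wild type and from 586 ± 79.5 to 782 ± 33.0 in *Bcl3-/-* mice, and the contrast was 0.91 (SE 0.18, adjusted p = 0.016 from limma). *Gdpd3*, a lysophospholipase D, had a fitted difference of 4.18 (SE 0.74, adjusted p = 0.0077). Its wild type WB arrays read 5.75, 6.19, 5.45 and 92.4 and its HU arrays 262, 204, 386 and 478, while its *Bcl3-/-* arrays read 1670, 1473, 1328 and 1352 and then 2244, 2262, 2061 and 2154. Both genotypes separated by condition. In 3 of the 4 wild type WB mice the signal was at the floor, so the size of the wild type response is not fixed by these arrays, and without the other mouse the difference was 5.18. All *Nfkb1-/-* arrays lay at the floor, with means of 5.89 in WB and 6.01 in HU mice.

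Other called genes with higher responses in wild type muscle were *Aspn*, a proteoglycan of connective tissue (1.19), and the DNA damage kinase *Atm* (1.11). *Wsb1*, a substrate receptor of an E3 ubiquitin ligase, was another (1.09). So were the phosphate transporter *Slc20a1* (0.93 at 1 of 2 probe sets, the other being at 0.06) and the splicing protein *Snrpd3* (0.88 at 1 of 3 probe sets, another being at −0.14). *Sh2b1*, an adaptor of insulin and leptin receptors, was also called (0.64). For *Aspn* the called response was a fall in *Bcl3-/-* muscle (−0.70), and the wild type response of 0.49 was not called. *Snrpd3* and *Sh2b1* were called in all 16 fits without 1 array, but *Aspn* in 4, *Atm* in 3, *Wsb1* in 8 and *Slc20a1* in 9. Of the 14 other settings, *Atm* was called in 9 and *Wsb1* and *Slc20a1* in 11. The wild type WB arrays of *Atm* read 6.47 to 16.2, all at the floor. *Col1a1* shows how probe sets of 1 gene can disagree. One probe set was flat in wild type muscle (55.7 ± 6.62 and 59.9 ± 3.36, SD, n = 4) and fell from 6896 ± 991 to 2362 ± 1377 in *Bcl3-/-* muscle, a difference of 1.81 (adjusted p = 0.016 from limma). The other went from 1106 ± 209 to 477 ± 45.7 in wild type muscle and from 5872 ± 2988 to 1092 ± 465 in *Bcl3-/-* muscle, and its difference of 1.15 did not pass (adjusted p = 0.32). Of the 166 called genes, 97 had more than 1 probe set tested, all probe sets had the same sign in 79 and all were called in 11.

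**Figure D3:**
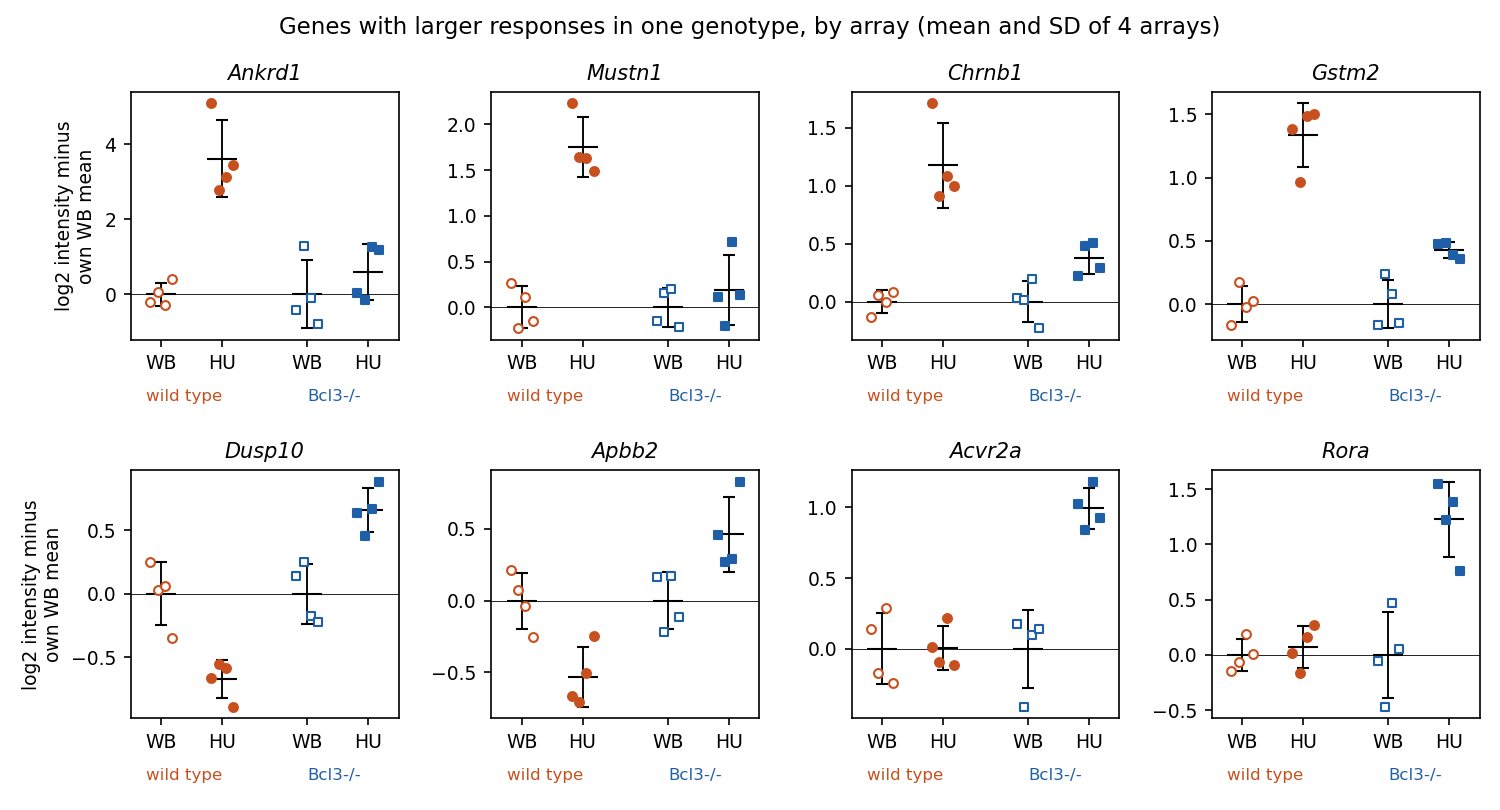
Intensities of 4 genes with a larger increase in wild type muscle (top) and 4 with a lower response in wild type muscle (bottom) on each array, in log2 units relative to the WB mean of the same genotype; open symbols are WB, filled symbols HU, and bars are the mean and SD of 4 arrays (y axes differ between panels). The wild type HU arrays of *Ankrd1* lie between 59.8 and 295 in intensity, all above the WB arrays, and *Dusp10* and *Apbb2* move down in wild type and up in *Bcl3-/-* mice.

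Among genes with a lower response in wild type muscle, 5 probe sets were called lower in wild type and higher in *Bcl3-/-* mice, 3 of them naming the single genes *Dusp10*, *Frat2* and *Apbb2*. *Dusp10*, a phosphatase that inactivates the stress kinases p38 and JNK, read 93.4, 80.5, 82.3 and 62.0 in WB and 49.8, 53.7, 52.7 and 42.5 in HU wild type muscle. In *Bcl3-/-* muscle it read 218, 236, 175 and 170 in WB and 307, 271, 314 and 365 in HU mice. The groups were separate in both genotypes and moved in opposite directions. The difference was −1.33 (SE 0.23, adjusted p = 0.0059 from limma). The *Nfkb1-/-* response, −0.71, had the sign of the wild type one. A second probe set of *Dusp10* gave −0.17 and was not called.

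*Apbb2*, an adaptor that binds the amyloid precursor protein, had 3 probe sets, all called, with differences of −0.99 to −0.76. At the first, wild type muscle went from 66.1 ± 8.78 to 45.8 ± 6.88 (SD, n = 4) and *Bcl3-/-* muscle from 221 ± 29.8 to 305 ± 58.2. *Frat2*, an inhibitor of the kinase GSK3, went from 34.1 ± 1.80 to 23.6 ± 3.53 in wild type and from 196 ± 20.9 to 289 ± 45.0 in *Bcl3-/-* mice, and the contrast was −1.09 (SE 0.21, adjusted p = 0.014 from limma). The *Nfkb1-/-* responses were −0.56 for *Apbb2* and 0.31 for *Frat2*.

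The same promoters were also searched for κB sites. A match to the consensus of the κB site, on either strand, was found in 5.67% of 27025 genes, in 3 of the 36 higher genes with a promoter (8.33%) and in 10 of the 108 lower genes (9.26%). The κB matches of *Rcl1* (−244 to −235), *Sh2b1* (−81 to −72) and *Apbb2* (−72 to −63, at 1 of its 2 starts) are shown because these are the 3 matched genes called in all 16 fits without 1 array at a probe set above the floor; the match of *Sh2b1* is at 1 of 2 starts.
Rcl1, chr19:29101125-29101374, plus strand: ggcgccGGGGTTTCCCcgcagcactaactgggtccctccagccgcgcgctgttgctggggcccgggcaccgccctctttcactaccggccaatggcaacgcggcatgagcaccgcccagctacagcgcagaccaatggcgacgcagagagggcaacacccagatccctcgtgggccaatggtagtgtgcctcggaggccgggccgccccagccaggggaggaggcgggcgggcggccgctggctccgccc
Sh2b1, chr7:126473095-126473344, minus strand: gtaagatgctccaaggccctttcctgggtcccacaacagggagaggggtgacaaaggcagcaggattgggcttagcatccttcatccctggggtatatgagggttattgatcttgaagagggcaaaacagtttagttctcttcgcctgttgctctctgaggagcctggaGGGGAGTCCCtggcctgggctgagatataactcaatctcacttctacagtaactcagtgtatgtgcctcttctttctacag
Apbb2, chr5:66337666-66337915, minus strand: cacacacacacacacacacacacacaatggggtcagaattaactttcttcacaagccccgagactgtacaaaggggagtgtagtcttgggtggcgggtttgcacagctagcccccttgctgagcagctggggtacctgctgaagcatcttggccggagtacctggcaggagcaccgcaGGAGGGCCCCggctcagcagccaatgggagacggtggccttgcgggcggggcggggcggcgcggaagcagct
*Rcl1*, a processing factor of ribosomal RNA, went from 181 ± 29.3 to 362 ± 73.2 (SD, n = 4) in *Bcl3-/-* and from 32.6 ± 2.23 to 29.2 ± 2.56 in wild type muscle, a difference of −1.15 (SE 0.23, adjusted p = 0.016 from limma). *Sh2b1* went from 98.0 ± 9.85 to 127 ± 5.65 in wild type and from 791 ± 55.1 to 660 ± 53.3 in *Bcl3-/-* mice, and the contrast was 0.64 (SE 0.13, adjusted p = 0.016). The 3 genes thus carried the same kind of match and moved in different directions.

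Some genes fell in wild type muscle with no called change in *Bcl3-/-* muscle. *Nfia*, a transcription factor of the nuclear factor I family, read 54.8, 23.4, 30.3 and 27.1 in WB and 9.05, 11.0, 11.3 and 10.5 in HU wild type mice. In *Bcl3-/-* mice it read 164, 194, 183 and 138 in WB and 270, 164, 177 and 180 in HU muscle. All unloaded wild type arrays were at the floor and below the WB arrays, and the *Bcl3-/-* groups overlapped. The difference was −1.82 (SE 0.26, adjusted p = 0.0013 from limma), 2 of its 3 probe sets were called, and *Nfkb1-/-* muscle had means of 12.5 in WB and 11.2 in HU mice.

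*Pgap2*, which remodels lipid anchors of membrane proteins, read 70.5, 67.0, 63.9 and 56.9 in WB and 27.0, 23.2, 28.7 and 28.9 in HU wild type muscle. In *Bcl3-/-* muscle it read 197, 159, 210 and 151, and then 176, 181, 179 and 240. The fall was seen in every wild type array and the *Bcl3-/-* groups overlapped. The difference was −1.38 (SE 0.17, adjusted p = 0.00028 from limma), and *Nfkb1-/-* muscle had means of 29.5 in WB and 22.4 in HU mice. *Mlf1*, a myeloid leukaemia factor that is also expressed in muscle, went from 829 ± 79.9 to 484 ± 62.5 (SD, n = 4) in wild type and from 3747 ± 251 to 4385 ± 99.3 in *Bcl3-/-* mice (difference −1.01, SE 0.17, adjusted p = 0.0059). Its *Nfkb1-/-* response was −0.76. *Tial1*, an RNA-binding protein, had the lowest adjusted p of all (4.5e-05, difference −1.31) at a probe set near the wild type floor, where the WB mean was 24.9 and the HU mean 11.5, but its other 3 probe sets had differences above 0, up to 0.64, and were not called.

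More genes rose in *Bcl3-/-* muscle with no called change in wild type muscle. Over all genes, 7.5% were called higher with unloading in *Bcl3-/-* muscle and 2.18% in wild type muscle. *Acvr2a* and *Acvr2b*, the activin receptors through which myostatin restrains muscle mass, were both in this class. *Acvr2a* read 62.9, 41.9, 59.6 and 61.6 in WB and 113, 99.7, 127 and 106 in HU *Bcl3-/-* muscle, and 32.8, 26.5, 36.4 and 25.2 in WB and 30.1, 28.0, 34.8 and 27.6 in HU wild type muscle. The unloaded *Bcl3-/-* arrays were all above the WB arrays and the wild type groups overlapped. The difference was −0.99 (SE 0.20, adjusted p = 0.016 from limma), and its second probe set gave −0.65, also called. The *Nfkb1-/-* responses were 0.30 for *Acvr2a* and 0.64 for *Acvr2b*.

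*Acvr2b* went from 166 ± 41.4 to 369 ± 42.8 (SD, n = 4) in *Bcl3-/-* muscle and from 33.5 ± 1.97 to 35.8 ± 10.9 in wild type muscle, a difference of −1.13 (SE 0.26, adjusted p = 0.034 from limma) that lost its call in 8 of the 16 fits without 1 array. These 2 genes were the called ones of 22 listed for myostatin and TGF-β, against 0.865% of all genes called lower. The median difference of the list was 0.04. Within that list, the follistatin-like gene *Fstl1* fell in *Bcl3-/-* muscle, where the wild type response was 0.08, with a difference of 1.08 that did not pass (adjusted p = 0.13), and the receptor *Tgfbr1* rose in wild type muscle (0.66, against 0.15).

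*Rora*, a nuclear receptor of the circadian clock, read 418, 314, 602 and 453 in WB and 1274, 1013, 1135 and 736 in HU *Bcl3-/-* muscle. In wild type muscle it read 144, 152, 181 and 160, and then 161, 142, 177 and 192. The *Bcl3-/-* groups were separate and the wild type groups overlapped. The difference was −1.16 (SE 0.25, adjusted p = 0.022 from limma); it was lost without wild type WB replicate 3 and without *Bcl3-/-* HU replicate 1, and 2 of 3 probe sets were called. In *Nfkb1-/-* muscle the response was 0.64. *Rora* was the 1 called gene of 17 clock genes, against 0.865% of all genes called lower. Of the 17, 12 had a negative difference (median −0.30), against 6048 of all 11098 genes. *Per3* and *Bhlhe40* rose in *Bcl3-/-* muscle (0.95 and 1.19) and *Nfil3* fell there (−1.40), while *Arntl* had responses of −0.94 in *Bcl3-/-* and 0.46 in wild type muscle that did not pass.

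*Fbp2*, the muscle fructose bisphosphatase, rose from 425 ± 15.1 to 1430 ± 212 (SD, n = 4) in *Bcl3-/-* muscle and went from 159 ± 55.6 to 206 ± 42.2 in wild type muscle. The difference was −1.31 (SE 0.30, adjusted p = 0.031 from limma), a call lost in 8 of the 16 fits without 1 array, and the *Nfkb1-/-* response was 1.34. *Fzd4*, a Wnt receptor, went from 137 ± 23.4 to 306 ± 56.7 in *Bcl3-/-* and from 106 ± 5.61 to 102 ± 8.39 in wild type muscle (difference −1.21, SE 0.23, adjusted p = 0.014), and its *Nfkb1-/-* response was 0.67. *Vldlr*, the very low density lipoprotein receptor, had 4 probe sets, all called, with differences of −1.13 to −0.89. *Nampt*, the enzyme that makes the precursor of NAD, went from 80.5 ± 9.35 to 107 ± 3.10 in *Bcl3-/-* and from 37.2 ± 2.4 to 31.0 ± 2.12 in wild type muscle (difference −0.68, adjusted p = 0.02 from limma). A second probe set of *Nampt* gave −0.35 and was not called. The stress kinase *Mapk14*, also called p38α, rose in *Bcl3-/-* muscle (0.29, against −0.25 in wild type), and its difference of −0.54 passed at 1 of 4 probe sets (adjusted p = 0.037), a call held in 5 of the 16 fits without 1 array. The 3 probe sets not called lay between −0.58 and 0.35.

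At the floor of the wild type arrays, *S100a9*, a calcium-binding protein of neutrophils, read 21.9, 16.4, 21.4 and 29.4 in WB and 244, 292, 189 and 83.9 in HU *Bcl3-/-* muscle. In wild type muscle it read 3.52, 3.50, 3.52 and 3.31 in WB and 5.17, 7.82, 9.13 and 5.59 in HU mice. Unloaded arrays were above WB arrays in both genotypes, but all wild type values were under 20. The difference of −2.11 (SE 0.49, adjusted p = 0.035 from limma) lost its call in 10 of the 16 fits without 1 array. The *Nfkb1-/-* response was 2.20. Of 14 neutrophil genes, 4 rose in *Bcl3-/-* muscle and none in wild type muscle, against 7.5% and 2.18% of all genes. Only 1 of the 14 was above the floor in both genotypes, so the array scale limits the wild type count. Those that rose included *S100a8* and *Lcn2* (2.71 and 1.74), whose differences did not pass (adjusted p = 0.47 and 0.38 from limma). *Mpo* and *Elane*, which encode enzymes of neutrophil granules, had *Bcl3-/-* responses of −0.18 and 0.06. In whole muscle, more cells of a type and more RNA per cell cannot be told apart. *Cyp1a1*, a monooxygenase induced through the aryl hydrocarbon receptor, rose from 43.4 ± 4.48 to 144 ± 51.6 (SD, n = 4) in *Bcl3-/-* muscle and lay at 4.2 to 7.11 on all wild type arrays.

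The NF-κB family gave no call. None of its 13 measured members had a called difference by limma, 1 had an unadjusted p under 0.05, and differences lay between −0.30 and 0.40. That member was *Map3k14*, the kinase NIK that starts the alternative pathway (0.31, SE 0.13, adjusted p = 0.31). The difference was 0.40 (SE 0.23) for *Relb* and 0.32 (SE 0.19) for *Nfkb2*, the partners of that pathway, −0.10 (SE 0.11) for *Rela*, −0.30 (SE 0.30) for the inhibitor *Nfkbia* and 0.10 (SE 0.16) for *Bcl3*. No member was called with unloading in either genotype. Only 5 of the 13 were above the floor in both genotypes.

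The genes of protein breakdown gave few called differences. The 25 probe sets that the study picked as atrophy genes were picked on these arrays, so their direction is not independent evidence. Of them 21 had a higher response in wild type muscle, with a median difference of 0.33 against −0.02 over all probe sets, 6 had an unadjusted p under 0.05, and 1, *Ankrd1*, was called. *Tnfrsf12a*, the receptor of the cytokine TWEAK, read 59.8, 86.6, 60.8 and 45.5 in WB and 166, 147, 110 and 230 in HU wild type muscle. It read 468, 450, 540 and 437, and then 372, 499, 676 and 333, in *Bcl3-/-* muscle. The wild type groups were separate and the *Bcl3-/-* groups overlapped, and the difference of 1.42 (SE 0.39) had an adjusted p of 0.083 from limma. In *Nfkb1-/-* muscle the response was 0.61. *Cul4a*, a ubiquitin ligase scaffold, rose in wild type muscle (0.50, against 0.11), and its difference of 0.39 (SE 0.15) did not pass (adjusted p = 0.26). The lysosomal protease *Ctss* differed by 0.82 (SE 0.28, adjusted p = 0.18).

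*Fbxo32*, the ubiquitin ligase atrogin-1, varied widely between mice. Its wild type arrays read 105, 106, 139 and 121 in WB and 198, 109, 404 and 404 in HU mice, and its *Bcl3-/-* arrays 590, 925, 611 and 891 in WB and 1222, 2898, 3460 and 407 in HU mice. One unloaded *Bcl3-/-* mouse was below every WB mouse of its genotype and the other 3 were above. The responses were 1.06 and 1.02, against 2.36 in *Nfkb1-/-* muscle, and the difference was 0.04 with a standard error of 0.73, so a difference of 1 on the log2 scale in either direction could not be detected. Of 17 ubiquitin ligases and partners none had a called difference by limma and 3 had an unadjusted p under 0.05. Of 37 proteasome genes none was called and 4 had an unadjusted p under 0.05, with a median difference of −0.02. Over all 11098 genes, 1482 had an unadjusted p under 0.05.

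Among the 19294 probe sets tested, 8789 had a higher response in wild type muscle, 2621 had an unadjusted p under 0.05 and 51 were called higher. Of the 240 probe sets that the study listed as needing Bcl-3, also chosen on these arrays, 198 had a higher response in wild type muscle, 79 had an unadjusted p under 0.05 and 12 had a called difference, all of them higher in wild type. The median response was 0.58 in wild type and 0.31 in *Bcl3-/-* mice.

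Among cell type markers, most macrophage and collagen genes had positive differences. Each gene is counted here by its probe set with the highest mean, and over all 11098 genes counted this way 45.5% had a positive difference and 1482 had an unadjusted p under 0.05. Of 25 macrophage and leukocyte genes, 22 had a higher response in wild type muscle (median 0.32), none was called by limma and 8 had an unadjusted p under 0.05. Only 12 of the 25 were above the floor in both genotypes. *Lgals3*, galectin-3, rose in wild type muscle (2.02, against 0.40), with a difference of 1.62 (SE 0.49, adjusted p = 0.11). *Cd68* and the complement gene *C1qc*, both at the wild type floor, had differences of 1.19 (adjusted p = 0.18) and 1.18 (adjusted p = 0.059), while *Adgre1* and *Csf1r*, which define macrophages, had responses of 0.03 and 0.01 in wild type muscle.

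Of 22 fibroblast and collagen genes, 20 had a positive difference (median 0.50), none was called by limma at that probe set and 6 had an unadjusted p under 0.05, although the other probe set of *Col1a1* was called, as was *Aspn*, which is not in the list. In *Bcl3-/-* muscle 14 of them fell, against 2.99% of all genes, and in wild type muscle 2 fell, against 1.75%. *Col3a1* and *Col6a3* were examples (−1.11 and −0.88 in *Bcl3-/-*, −0.43 and −0.29 in wild type muscle), and *Fn1*, fibronectin, went from 0.01 in wild type to −0.88 in *Bcl3-/-* muscle, and the contrast was 0.89 (SE 0.27, adjusted p = 0.11). Among the 14 muscle markers, differences other than that of *Myh7* lay between −0.05 and 0.13. The part of these cell types in the differences of other genes was not tested.

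The ketone body list, with *Bdh1* and *Oxct1*, had positive differences for 5 of its 5 genes (median 0.33), against 45.5% of all genes. Of these 1 was called, against 0.306% of all genes, and 3 of the 5 fell in *Bcl3-/-* muscle, against 2.99%. In other lists of energy metabolism, the median difference was −0.05 for 37 genes of oxidative phosphorylation, 0.01 for 33 genes of the citrate cycle and fatty acid oxidation and −0.06 for 28 genes of glycolysis and glycogen, of which *Fbp2* was called. *Fabp3*, the fatty acid carrier of oxidative muscle, had responses of −0.46 in wild type and −1.40 in *Bcl3-/-* mice and a difference of 0.94 (SE 0.26, adjusted p = 0.079).

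**Figure D4:**
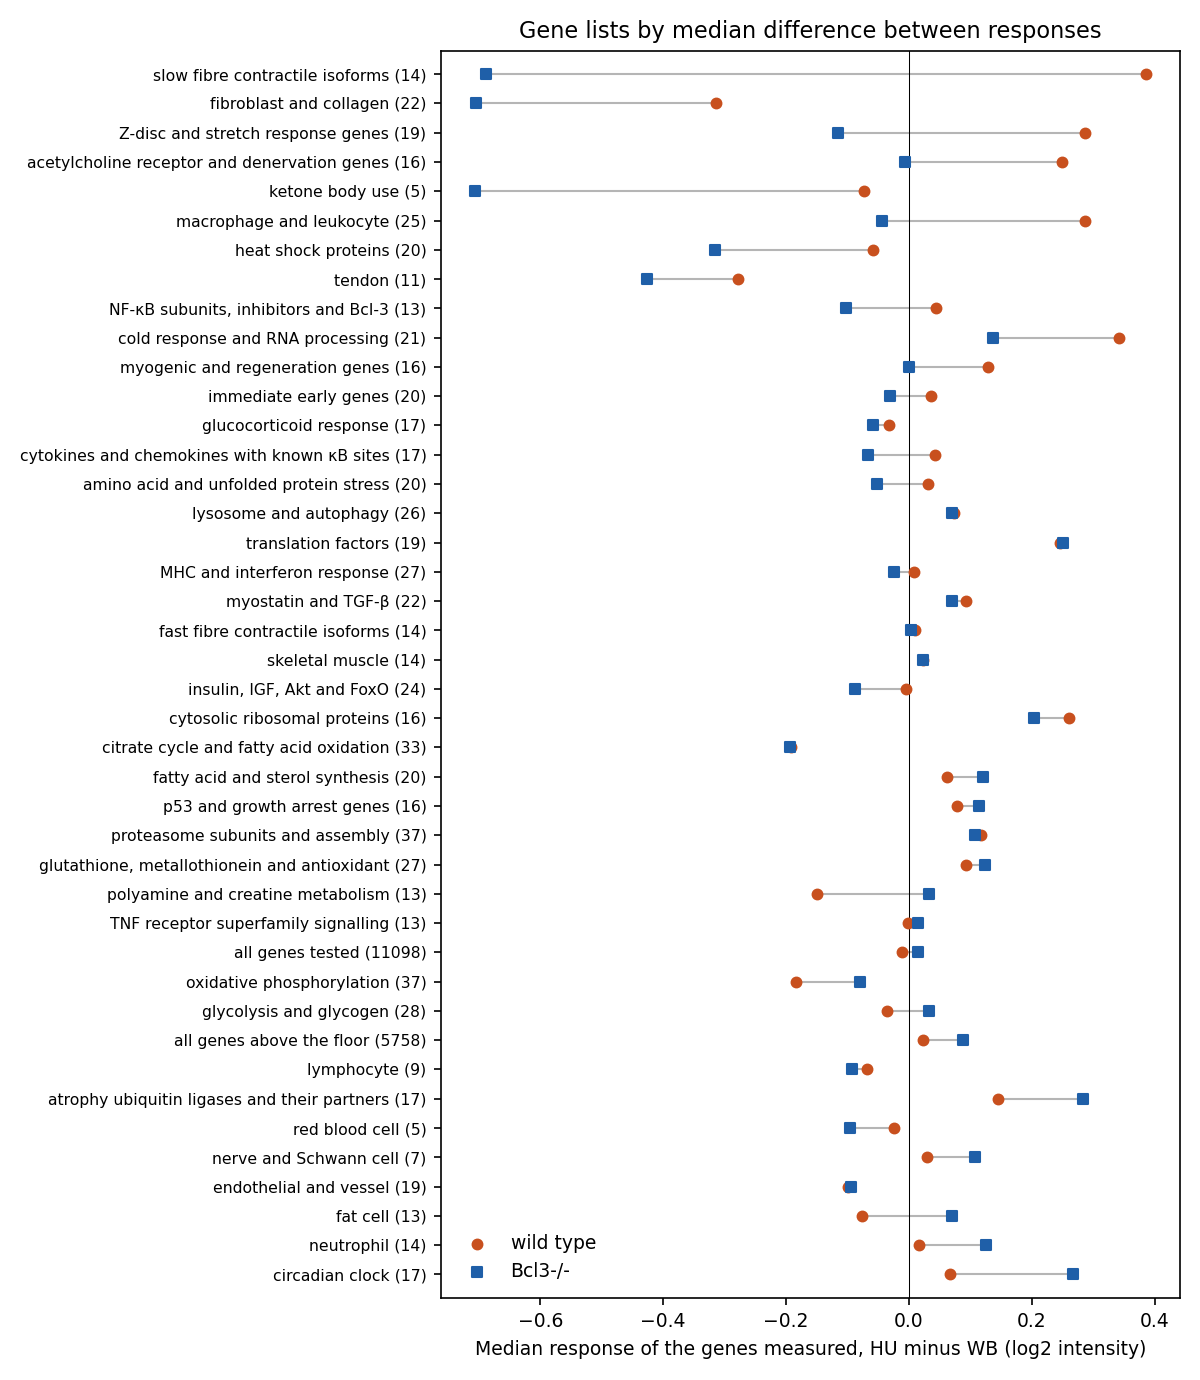
Median response of the genes of each list in wild type (orange circles) and *Bcl3-/-* muscle (blue squares), HU minus WB in log2 intensity, with the number of genes measured in brackets and lists ordered by the median difference between responses. The slow fibre list stands at the top, with medians of 0.39 in wild type and −0.69 in *Bcl3-/-* mice, and the circadian clock at the bottom; all genes tested are shown for comparison.

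**Figure D5:**
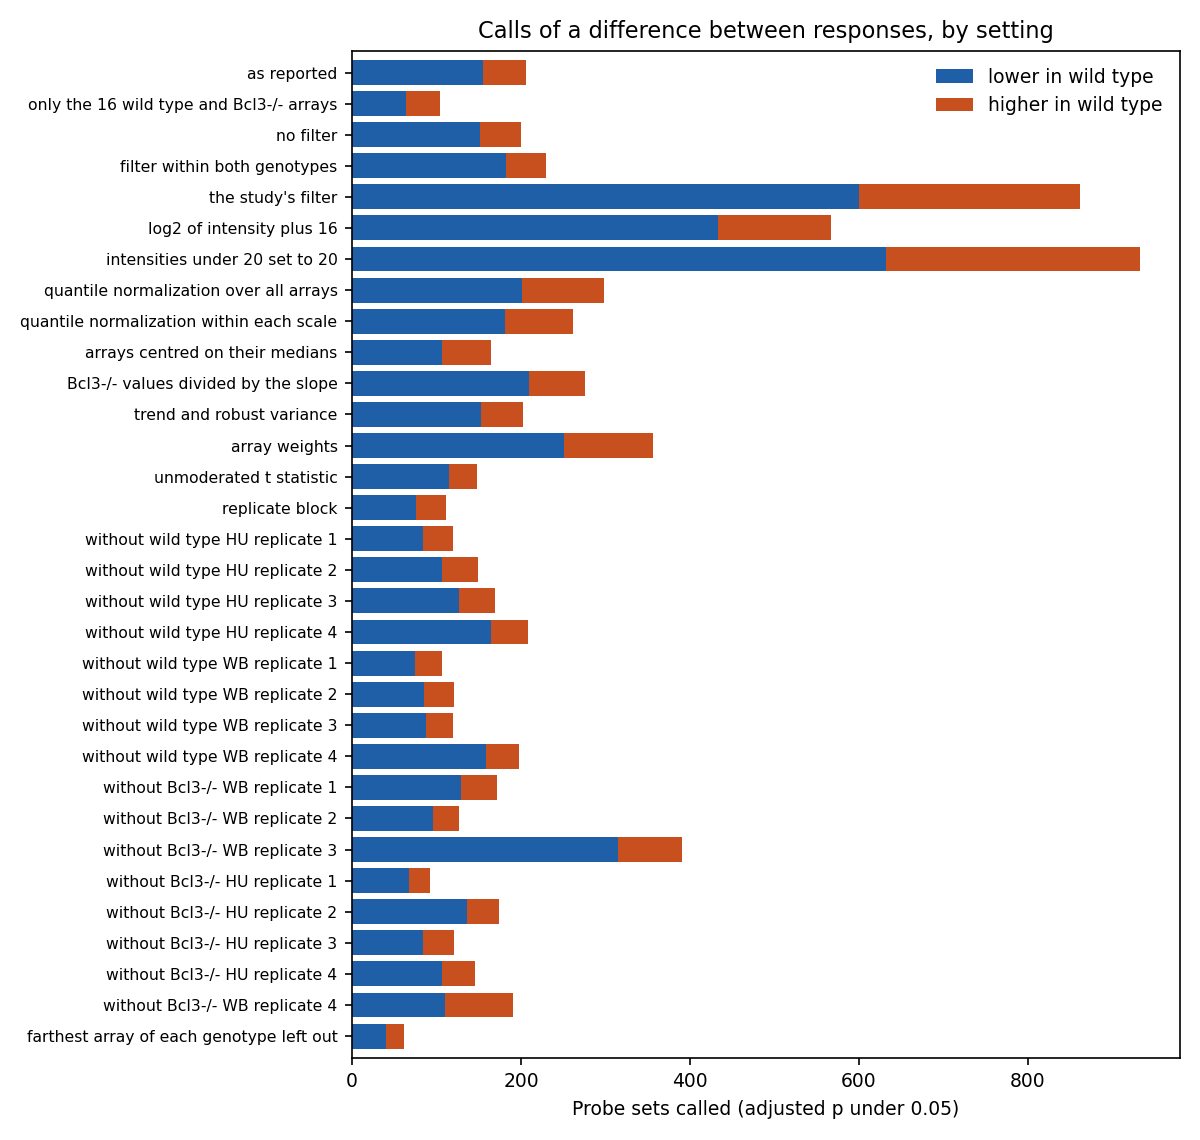
Number of probe sets called at an adjusted p under 0.05 as higher (orange) or lower (blue) in wild type muscle, for the reported setting, each other setting and each fit without 1 or 2 arrays. The total runs from 61 when the farthest array of each genotype was left out to 933 when intensities under 20 were set to 20, and lower responses in wild type outnumber higher ones in every bar.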

How the data were processed

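Gastrocnemius and plantaris RNA was hybridised to Affymetrix 430A 2.0 arrays, 1 mouse per array, and per the labels the authors processed the scans with GCOS and RMA, and the methods name GenePattern (3.2.1). The deposited values are linear RMA intensities, which were taken to log2 here. The *Bcl3-/-* arrays lie on another scale, and whether RMA was run separately for them is not given in the sources used here. Of 22690 probe sets, 64 were controls, 20380 had 1 gene, 691 had several and 1555 were not listed in the annotation used. Probe sets above 20 on at least 4 of 24 arrays were tested with limma (3.58.1, R 4.3.3) with 1 mean per group, and the difference between responses was a contrast with Benjamini-Hochberg adjustment at 0.05. The fit had 18 residual and 5.89 prior degrees of freedom. The test was checked on simulated data. The number of arrays limits the precision, since arrays give no counting depth.

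Named genes were the NF-κB family, the 15 largest called differences each way above the floor and 5 each way at the floor, probe sets called in opposite directions, in every gene list at most 5 members that were called (2 where no member was) and the atrophy genes of the study. In a list the probe set with the highest mean represents a gene. Further members and called genes were named after their values were seen. The members and lists were chosen with earlier results of these data known. Alternatives changed the arrays, the filter, the scale, the normalization, the variance model and the replicate block.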

Additional observations from a re-analysis of the deposited data

Results flagged for a closer look

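In 12 of the 152 groups of 4 arrays, over 38 probe sets described by array, 1 array lay far from the other 3 by Dixon's criterion, and chance gives this in about 1 in 20 groups. In wild type HU muscle these were *Ankrd1* in replicate 1 (295, next 94.6), *Vldlr* in replicate 1 (426, next 352) and *Col1a1* in replicate 2 (545, next 459). In wild type WB muscle they were *Gdpd3* in replicate 4 (92.4, next 6.19), *S100a9* in replicate 4 (3.31, next 3.50), *Tnni1* in replicate 3 (297, next 227) and *Frat2* in replicate 2 (36.7, next 33.4). In *Bcl3-/-* WB muscle they were *Acvr2a* in replicate 2 (41.9, next 59.6) and *Bdh1* in replicate 4 (329, next 372). In *Bcl3-/-* HU muscle they were *Nfia* in replicate 1 (270, next 180), *Bdh1* in replicate 1 (20.1, next 36.1) and *Pgap2* in replicate 4 (240, next 181).

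The unloading response itself differed between the genotypes, as tested by the contrast of responses in limma, for 51 probe sets higher and 155 lower in wild type muscle.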

How the results depend on the processing

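The counts of 51 higher, 155 lower and 152 above the floor moved by over 1.5 times in several settings, and the cause was not tested beyond what each setting changes. With the 16 wild type and *Bcl3-/-* arrays alone they were 40, 64 and 77. The filter within both genotypes gave 230 above the floor, and the study's filter gave 261, 600 and 384. Adding 16 to intensities gave 134, 433 and 358, and setting intensities under 20 to 20 gave 301, 632 and 383. Quantile normalization gave 97 higher over all arrays and 81 within each scale, and array weights gave 105, 251 and 256. The unmoderated statistic gave 33 higher. Leaving out 1 array gave 25 to 80 higher, 67 to 315 lower and 68 to 287 above the floor. Leaving out the farthest array of each genotype, chosen after seeing the data, gave 21, 40 and 40. The share of higher calls was 24.8%, and it was 38.5% with 16 arrays, 34.8% with arrays centred on their medians and 42.1% without *Bcl3-/-* WB replicate 4.

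With the replicate number as a block, 35 were higher, 76 lower and 80 above the floor. Same-numbered arrays correlated at −0.104 to 0.0754, so the numbers do not pair the mice.

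Among named and called genes, 11 of 7562 values changed sign, all of *Fbxo32*. Its difference was −0.0304 with 16 added, −0.0891 with *Bcl3-/-* values divided by the slope, −0.257 with array weights, and between −0.585 and 0.445 without 1 array. Intensities near the wild type floor limit what could be seen for 9967 probe sets. Of the 14 other settings, *Chrnb1*, *Fbp2* and *Acvr2b* were called in 11 and *Chrne* and *S100a9* in 10.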
